A study of Mus musculus with 9 samples.

Results

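Explants of mouse Reissner's membrane kept for 24 h with the synthetic glucocorticoid dexamethasone were compared, across all genes on the array, with explants kept for 24 h without it. A probe set was taken in when its signal reached 200 on at least 3 of the 6 arrays compared, control probe sets left out. That rule kept 17131 of 45101 probe sets, which stood for 9318 of the 18193 genes on the array. Reissner's membrane closes off the endolymph duct of the cochlea, with an epithelium on the endolymph side and a mesothelium on the perilymph side. The tissue came from adult mice, whose strain is not given in the sources used here. Membranes were dissected by hand, pooled, and cultured as native tissue without proliferation, according to the labels. The treated group had 3 arrays (A, B and C) of explants cultured with dexamethasone, and the untreated group had 3 arrays of explants cultured for the same 24 h with no added agent. Another group of 3 arrays, from membranes extracted without culture (fresh, 0 h), is given beside some genes and entered no test. The dose was 100 nM in the design text and for array A, while the labels of arrays B and C type it in mM. The 3 arrays of a group were hybridized from the same pooled sample, as the design text reads, so every p-value rests on how arrays of 1 pool vary, a spread that may be technical, and says nothing of animals. In such bulk tissue, fewer cells of a type and less RNA per cell cannot be told apart.

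Glucocorticoids enter the cell and bind the glucocorticoid receptor (Nr3c1), which then moves to the nucleus and works as a transcription factor. Bound to DNA as a dimer, the receptor switches on genes such as Fkbp5, Tsc22d3 and Per1. It also interferes with NF-kB and AP-1, and in many tissues this lowers the transcripts of chemokines, adhesion molecules and interferon-induced genes. In the cochlea the receptor and its mineralocorticoid relative (Nr3c2) are studied for the control of sodium and potassium in endolymph, and dexamethasone is used as a treatment of sudden hearing loss.

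Signals are linear intensities that the authors scaled to a target of 500 on each array. Changes are differences of group means of log2(signal + 32), dexamethasone minus untreated, ± SE, with 3 arrays per group, tested with limma over all 17131 probe sets, and a change was called at an adjusted p under 0.05. Arrays were compared by Pearson's r over the log2 signals of the tested probe sets, which was 0.992 to 0.993 between arrays of 1 group and 0.949 to 0.952 between the groups. Of all probe sets, 37.4% to 37.7% reached 200 in dexamethasone arrays and 36.0% to 36.4% in untreated arrays. The 3′ to 5′ signal ratio of the Gapdh control probe sets, a sign of RNA integrity and of amplification, was 5.02 to 5.47 in dexamethasone arrays and 3.46 to 3.88 in untreated arrays, while that of Actb was 1.79 to 1.96 against 1.86 to 1.96. Hybridization controls, added in fixed amount, are on the array in 2 sets of 9 probe sets. The first set was on average 0.49 higher (log2) in dexamethasone arrays, from 0.36 to 0.56, and the second (r2) set 0.35 higher, from 0.23 to 0.45. Scaling to the first set, called hybridization-control scaling below, instead of to all probe sets moved the median change by -0.47, from 0.004 to -0.47, and left 1255 probe sets called higher and 12645 lower, so that 9.03% of the called probe sets were higher, against 50.9% in the fit reported here. Scaling to the second set, tried after the data were seen, moved the median by -0.34 and left 1757 probe sets higher and 10751 lower. Rises smaller than these shifts turn into falls, so counts under the first set stand beside lists and families that rose. Which scaling is closer to the RNA content of the tissue was not tested.

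Some of the genes that moved most have, in the 250 bases upstream of their RefSeq start (build GRCm38.p6), the letters of a binding element. The interferon-stimulated response element was searched as GAAANNGAAA and the glucocorticoid response element as GNACANNNTGTNC, on both strands, where N is any base. GAAANNGAAA occurred in 2.43% of the 9845 windows of tested genes (a gene can have several windows), in 37.0% of the 27 windows of a list of interferon-induced genes, in 9.23% of the 130 windows of genes at least 2-fold lower with dexamethasone, and in 2.27% of the 132 windows of genes at least 2-fold higher. The 12 matching windows of the lower genes belong to 11 genes. Ifit1, Ifit3, Gbp3 and Rsad2 are among them and also in the interferon list, so these sets are not independent. GNACANNNTGTNC occurred in 0.295% of the windows of tested genes, in 4 of the 132 windows of genes at least 2-fold higher (3.03%), and in none of the 130 windows of genes at least 2-fold lower. In a list of known receptor targets it occurred in 4 of 51 windows (7.84%). These windows belong to 3 genes, Sgk1 among them, which moved little, by -0.15 to 0.22 on the log2 scale. Some members of the 2-fold sets, such as Rsad2, Trim63 and Car14, passed the signal filter only through the group where they are high. A match is a description of the letters and not a shown binding site. The stretches below belong to 4 of the largest falls and to the 4 genes at least 2-fold higher with a match, followed by Sgk1, a known receptor target whose window has the element and whose signal fell slightly. They are written 5′ to 3′ along the gene's strand with every match in capitals.
Ifit1, chr19:34640735-34640854, plus strand: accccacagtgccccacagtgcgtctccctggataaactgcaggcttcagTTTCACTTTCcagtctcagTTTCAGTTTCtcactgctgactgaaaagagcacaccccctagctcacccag
Ifit3, chr19:34583323-34583442, plus strand: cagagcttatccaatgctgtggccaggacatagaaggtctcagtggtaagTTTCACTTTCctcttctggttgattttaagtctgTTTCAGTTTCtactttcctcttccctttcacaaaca
Gbp3, chr3:142559924-142560043, plus strand: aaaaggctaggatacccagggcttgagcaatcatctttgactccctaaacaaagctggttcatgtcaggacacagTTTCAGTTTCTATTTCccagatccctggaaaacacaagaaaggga
Rsad2, chr12:26456503-26456622, minus strand: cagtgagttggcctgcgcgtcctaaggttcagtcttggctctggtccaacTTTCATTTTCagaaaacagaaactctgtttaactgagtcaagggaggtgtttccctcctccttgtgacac
Trim63, chr4:134314870-134314989, plus strand: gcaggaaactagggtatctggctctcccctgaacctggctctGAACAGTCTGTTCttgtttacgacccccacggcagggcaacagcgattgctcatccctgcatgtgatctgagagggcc
Serpina3n, chr12:104406580-104406699, plus strand: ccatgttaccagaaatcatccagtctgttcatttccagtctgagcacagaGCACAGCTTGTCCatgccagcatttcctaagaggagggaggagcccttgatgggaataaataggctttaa
Car14, chr3:95904816-95904935, minus strand: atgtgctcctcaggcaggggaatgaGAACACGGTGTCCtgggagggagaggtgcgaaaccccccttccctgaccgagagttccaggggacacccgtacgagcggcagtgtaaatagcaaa
Map3k6, chr4:133240587-133240706, plus strand: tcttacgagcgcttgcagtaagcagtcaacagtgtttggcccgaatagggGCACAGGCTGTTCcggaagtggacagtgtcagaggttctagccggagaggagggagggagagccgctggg
Sgk1, chr10:21993652-21993771, plus strand: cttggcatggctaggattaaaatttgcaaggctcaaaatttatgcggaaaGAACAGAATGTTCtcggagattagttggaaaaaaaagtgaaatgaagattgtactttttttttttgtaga
Ifit1 and Ifit3 each held 2 separate matches, and the 2 matches of Gbp3 overlapped.

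Dexamethasone shifted a large share of the transcriptome by small amounts and a small share of genes by at least 2-fold. Of 17131 probe sets, 9188 were called (53.6%), 4673 of them higher (27.3%) and 4515 lower (26.4%), and 562 (3.28%) were at least 2-fold higher and 221 (1.29%) at least 2-fold lower. Counted by gene, with the brightest tested probe set standing for each, 2091 genes were higher (22.4%) and 2747 lower (29.5%). Of 1524 genes with 2 or more called probe sets, 1138 (74.7%) had them all in 1 direction, and with the mean over a gene's probe sets 4209 of the 4838 called genes were called in the same direction and 190 had the opposite sign. At least 2-fold changes were called for 146 genes upward (1.57%) and 134 downward (1.44%). Among the 4838 called genes the change was under 0.5 on the log2 scale for 3335, from 0.5 to 1 for 1223, from 1 to 2 for 242, and 2 or more for 38, of which 14 rose and 24 fell. The arrays of the 2 groups did not overlap for 4719 of the called genes, and for 5577 of all 9318 tested genes. Under hybridization-control scaling, 145 of the 146 genes at least 2-fold higher and all 134 genes at least 2-fold lower kept their direction and their call, while 1338 of the 2091 rises of any size turned negative. Of the 146 and 134 genes, 106 and 88 were in none of the pathway lists described below, which cover 1049 of the 9318 genes.

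**Figure D1:**
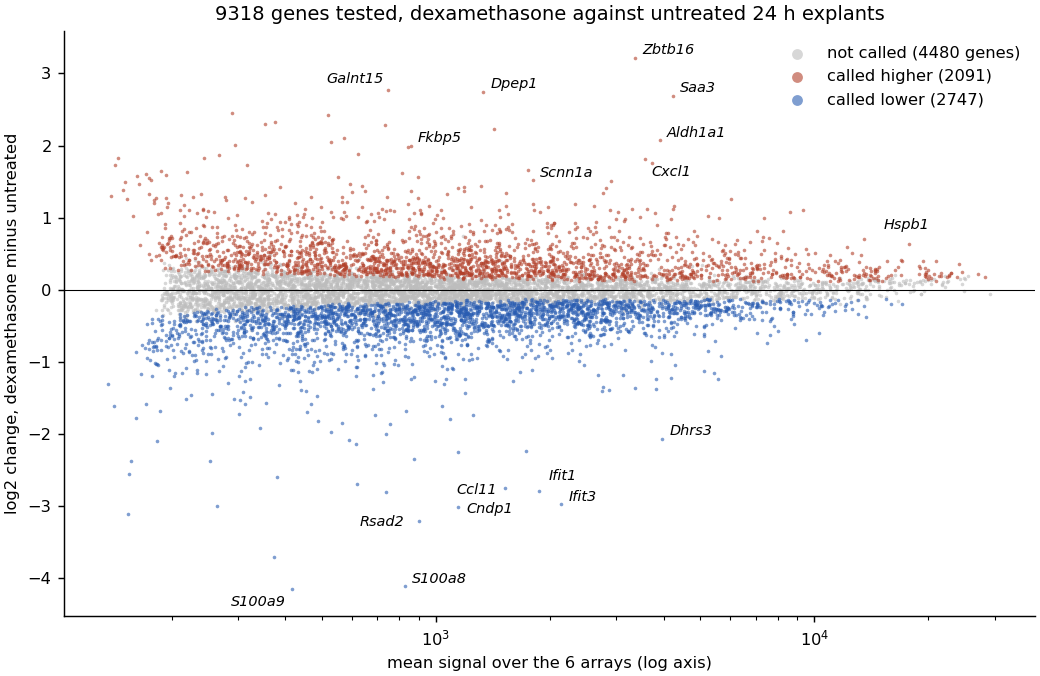
Each point is 1 of 9318 genes, with the mean signal over the 6 arrays (log axis) across and the log2 change with dexamethasone up; red and blue points passed the test upward (2091) and downward (2747), grey points did not. Among genes measured in both groups the points reach from -3.01 (Cndp1) to 3.22 (Zbtb16), and lower points have dexamethasone arrays under 200, where the fitted value is not a bound; under hybridization-control scaling the points shift down by 0.26 to 0.49.

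The largest rise among genes measured in both groups was that of Zbtb16, which encodes the zinc finger repressor PLZF. Zbtb16 gave signals of 6108, 6106 and 6049.5 on dexamethasone arrays A, B and C, and 603, 564 and 722 on the untreated arrays, a change of 3.22 ± 0.080 (adjusted p = 1.10e-08). The groups lay far apart, and the dexamethasone signals were also above the fresh ones, 3214, 3188 and 3380.5. Dpep1, a membrane dipeptidase that splits leukotriene D4 and other peptides, read 2275, 2272 and 2474 with dexamethasone and 348, 268 and 354 without (2.75 ± 0.099, adjusted p = 1.08e-07). Saa3, an acute-phase serum amyloid gene, read 7547, 7157 and 7314 with dexamethasone and 1033, 1152 and 1139 without (2.69 ± 0.056, adjusted p = 3.72e-09), while fresh membranes had a mean of 45.3. All 3 genes were higher on every treated array than on any untreated one, which was a condition of being named as a largest rise.

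The next rises were in genes of matrix, vessel, retinoid and signalling functions. Epyc, a small leucine-rich proteoglycan, rose by 2.28 ± 0.15, from 245, 199.7 and 234 to 933, 1326 and 1475, with array A the lowest of the treated arrays and fresh membranes far higher at 9909.9 ± 198 (SD, n = 3). Aldh1a1, which makes retinoic acid from retinal, rose by 2.08 ± 0.056, from 1513, 1369 and 1554 to 6415, 6282 and 6282. Flt1, a VEGF receptor, rose by 1.98 ± 0.099, and Id1, an inhibitor of basic helix-loop-helix factors and a BMP target, rose by 1.76 ± 0.059, from 1817, 1665 and 1580 to 5895, 5603 and 5832. Acpp, a transmembrane phosphatase that also makes adenosine, rose by 1.66 ± 0.051, Ampd3, an AMP deaminase, rose by 1.57 ± 0.070, and Hmga2, a chromatin architectural protein, rose by 1.56 ± 0.099. The adjusted p of these genes was at most 3.22e-06. A call and treated and untreated arrays that did not overlap were conditions of being named here.

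For 120 called genes of the 9318 tested, all 3 untreated arrays lay under 200, so the rise is a lower bound, the dexamethasone mean over 200. These genes passed the signal filter only through the dexamethasone arrays, so their direction was set by the filter. The bounds were highest for Galnt15, an enzyme that starts O-linked glycan chains. Galnt15 read 1385, 1320.5 and 1270.1 with dexamethasone and 143, 189.9 and 171 without, at least 6.63-fold higher. Dlk2, a Notch ligand-like protein, was at least 4.47-fold higher, the neural cell adhesion molecule gene Ncam1 at least 4.36-fold, and Trim63, a muscle ubiquitin ligase known as MuRF1, at least 3.23-fold, with 626, 712 and 602 against 93.4, 109 and 106. Next came F13a1, the A chain of clotting factor XIII, at least 3.05-fold, Sult1a1, a phenol sulfotransferase, at least 2.56-fold, Scn7a, a sodium channel relative, at least 2.52-fold, and Il34, a ligand of the macrophage receptor Csf1r, at least 2.46-fold. Their adjusted p was at most 7.14e-06. Of the genes printed above with a GNACANNNTGTNC match, Serpina3n, an acute-phase protease inhibitor, rose by 1.29 ± 0.10, from 458, 362 and 436 to 1033, 984 and 1193. Map3k6, a stress-activated kinase, read 443, 452 and 466 against 139, 159 and 216 (1.27 ± 0.13), and Car14, a membrane carbonic anhydrase, was at least 1.99-fold higher, 361, 406 and 426 against 79.9, 75.1 and 113 (adjusted p at most 4.75e-05 for the 3).

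**Figure D2:**
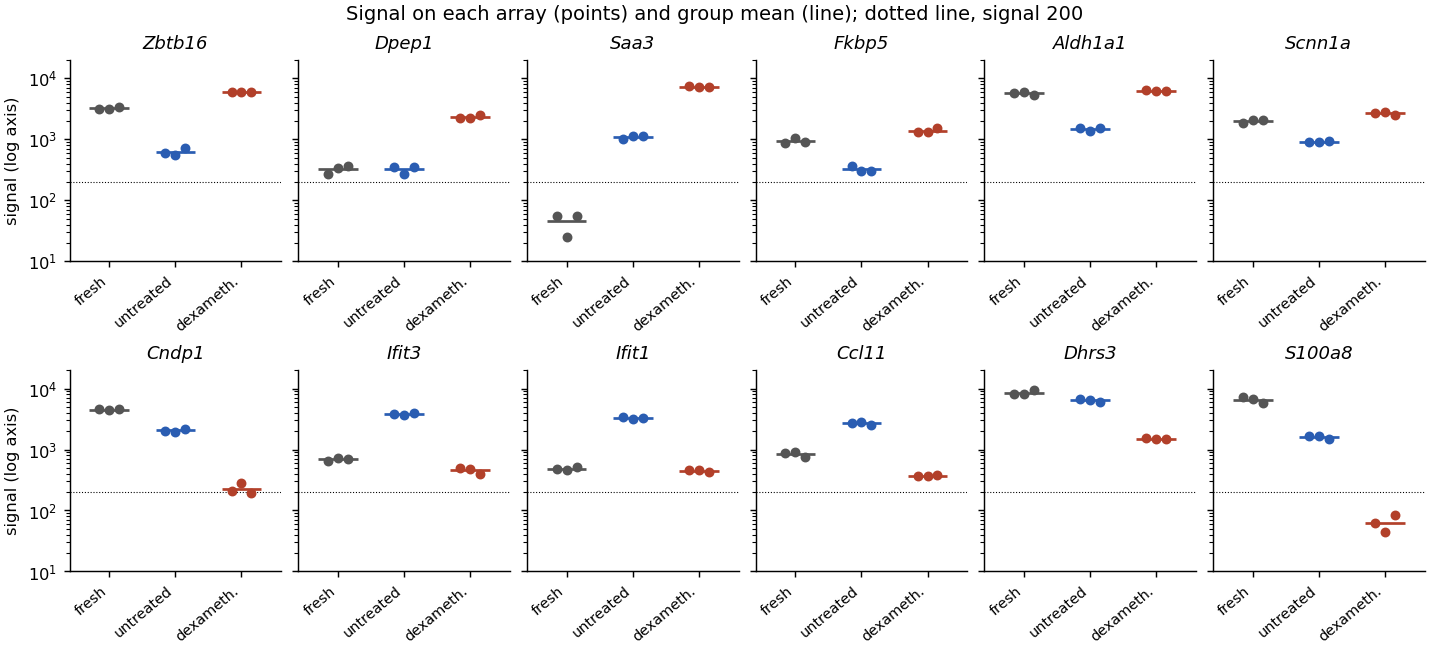
Points are the signals of the 3 arrays of each group (fresh, untreated, dexamethasone) on a log axis, lines are group means, and the dotted line is a signal of 200. In the upper row the dexamethasone arrays are all above the untreated ones, for example 6049.5 to 6108 against 564 to 722 for Zbtb16; in the lower row they are all below, for example 404 to 506 against 3729 to 3958 for Ifit3.

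Known targets of the glucocorticoid receptor were mostly higher. Of 35 tested targets, 28 rose (80.0%), 2 fell and 5 did not pass, with a median of 0.35 against -0.03 for all 9318 genes; under hybridization-control scaling 13 rose and 13 fell and the median was -0.12, and with the second control set 14 rose and 9 fell. At least 2-fold rises numbered 8 (22.9%), against 1.57% of all genes, and rises of any size were 22.4% of all genes. Fkbp5, a co-chaperone that lowers the receptor's affinity for hormone, read 1334, 1304 and 1528 with dexamethasone and 373, 301 and 302 without, a change of 1.99 ± 0.098 (adjusted p = 5.76e-07). The clock gene Per1 read 659, 531 and 655 against 270.2, 281 and 287 (1.05 ± 0.099, adjusted p = 2.48e-05). Besides Zbtb16 and Sult1a1, the list's 2-fold rises were in Pdk4 (1.19 ± 0.082), which turns cells from glucose to fat oxidation, the transcription factors Cebpd (1.17 ± 0.047) and Klf15 (1.17 ± 0.079), and Lcn2 (1.16 ± 0.050), an iron-binding acute-phase protein. Smaller rises were those of the G protein regulator Rgs2 (0.93 ± 0.087), Cebpb (0.85 ± 0.055), glutamine synthetase Glul (0.82 ± 0.044), the MAP kinase phosphatase Dusp1 (0.66 ± 0.060) and Klf9 (0.60 ± 0.067), a call that Klf9 lost under hybridization-control scaling (0.11).

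Of the classical targets, Sgk1 and Ddit4 fell, and Tsc22d3 rose by 1 of its 2 tested probe sets. Sgk1, the kinase that keeps sodium channels in the membrane, read 7190.3, 7072 and 7440.1 with dexamethasone and 8399.9, 7998 and 7719.8 without, a small fall (-0.15 ± 0.050, adjusted p = 0.0276) that was not called without dexamethasone array A (adjusted p = 0.0737), dexamethasone array B (0.0811) or untreated array A (0.101). Ddit4, an mTOR inhibitor, fell clearly: 604, 729.9 and 779 against 1746, 1615 and 1699 (-1.23 ± 0.089, adjusted p = 5.64e-06). Tsc22d3, which encodes the anti-inflammatory leucine zipper protein GILZ, has probe sets that disagreed. The brightest, whose x_at suffix marks probes that may hybridize to several transcripts, read 159, 288 and 316 against 219.6, 173 and 198 and did not pass (adjusted p = 0.274), with array A low and the groups overlapping; without array A it was called at 0.55 (adjusted p = 0.00826). The other tested one read 422, 436 and 443 against 103, 124 and 79.3, at least 2.17-fold higher since the untreated arrays were under 200 (adjusted p = 5.56e-06), with fresh signals of 990.5, 966 and 1023.

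**Figure D3:**
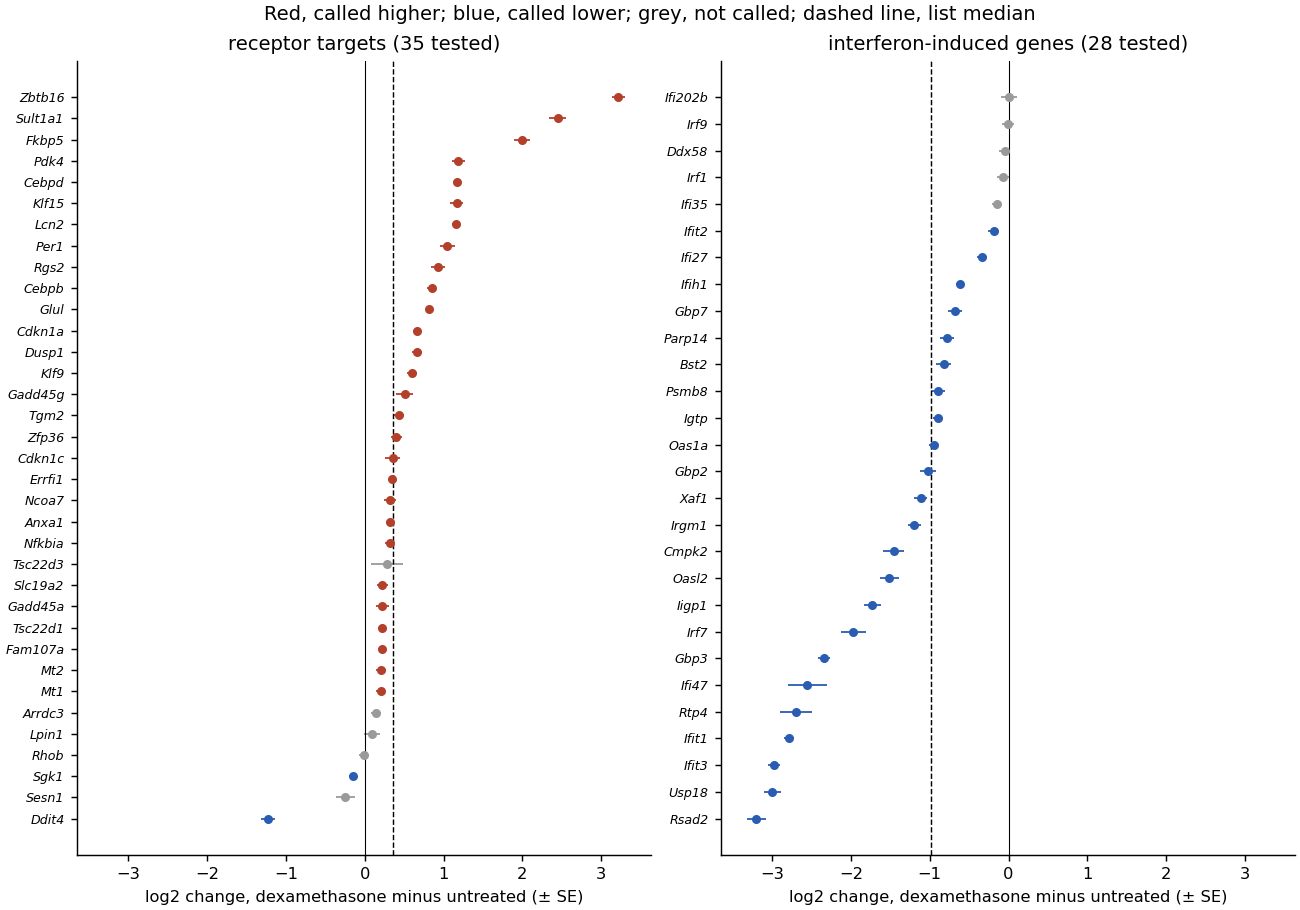
Log2 change ± SE (dexamethasone minus untreated) of the 35 tested receptor targets and the 28 tested interferon-induced genes, with the list medians (0.35 and -0.98) dashed. 28 receptor targets lie to the right and are called (13 under hybridization-control scaling), and 23 interferon-induced genes lie to the left and are called (28 under that scaling).

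The receptors themselves were lower or did not pass. Nr3c1 by its brightest probe set read 540.4, 523 and 555 with dexamethasone and 773, 672 and 861 without (-0.48 ± 0.092, adjusted p = 0.00176), but its other 2 tested probe sets did not pass (-0.20 and 0.10, adjusted p = 0.0605 and 0.496). The mineralocorticoid receptor gene Nr3c2 fell from 1520.4, 1514 and 1453 to 937, 1079 and 1062 (-0.53 ± 0.067, adjusted p = 1.40e-04). The 2 enzymes that make and break active glucocorticoid, Hsd11b1 and Hsd11b2, were under 200 on all 6 arrays and were not tested, with Hsd11b1 at a mean of 383 in fresh membranes.

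Among genes of sodium transport, the α subunit of the epithelial sodium channel, Wnk4 and Usp2 were higher, and β subunits of the sodium pump were lower. Scnn1a, the pore-forming α subunit, read 2718, 2809.5 and 2550.1 with dexamethasone and 900.1, 893 and 959 without (1.52 ± 0.059, adjusted p = 1.58e-07), and the fresh signals lay between, at 1825, 2059.7 and 2061. The β subunit gene Scnn1b did not pass, at 1564, 1714 and 1877 against 1561, 1526 and 1676 (adjusted p = 0.23). Scnn1g, the γ subunit, rose by 0.60 ± 0.068 (adjusted p = 7.48e-05), a call lost under hybridization-control scaling (0.12). The kinase gene Wnk4, which tunes sodium and chloride carriers, read 1039, 972 and 986 against 272, 276 and 200.5 (1.88 ± 0.11, adjusted p = 1.74e-06). Usp2, a deubiquitinase known to spare the channel from breakdown, rose by 0.87 ± 0.054 (adjusted p = 2.32e-06).

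The pump subunits Atp1b1 (-0.33 ± 0.050), Atp1b2 (-0.53 ± 0.078) and Atp1b3 (-0.59 ± 0.074) and the pump regulator Fxyd5 (-0.61 ± 0.096) fell (adjusted p at most 5.61e-04). In all, 9 of 23 sodium transport genes rose (39.1%) and 6 fell (26.1%), against 22.4% and 29.5% of all genes, and under hybridization-control scaling 3 rose and 17 fell. Carriers of bicarbonate and protons gave 0 rises and 6 falls of 11 (10 falls under that scaling). Outside that list, Slc4a10, a sodium-coupled bicarbonate carrier, read 170.2, 134 and 180.2 against 1432, 1302 and 1211, at least 6.58-fold lower (adjusted p = 1.58e-07). Car12, a carbonic anhydrase at the cell surface, fell from 2908, 2927 and 2798 to 629, 634 and 513 (-2.23 ± 0.081), and the anion exchangers Slc26a4, known as pendrin (-0.98 ± 0.083), Slc4a2 (-0.54 ± 0.094) and Slc26a7 (-0.51 ± 0.056) fell too (adjusted p at most 9.31e-04). Of the potassium channels, Kcnk1 rose (1.10 ± 0.061) and Kcnk2 fell (-1.26 ± 0.11). The water channel genes Aqp5 and Aqp1 fell: Aqp5 read 406, 349 and 385 against 1284, 1267 and 1303 (-1.68 ± 0.073), and Aqp1 was at least 2.25-fold lower (adjusted p at most 1.85e-05 for these 4).

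Interferon-induced genes had the largest share of falls among the lists with 20 or more tested genes. Of 28 tested, 23 fell (82.1%), none rose and 5 did not pass, and 14 fell at least 2-fold (50.0%), against 29.5% and 1.44% of all genes. For 7 of the falls all dexamethasone arrays were under 200, so those genes passed the filter only through the untreated arrays. Outside the list, Ifitm1 (interferon-induced transmembrane protein 1) rose by 0.71 ± 0.081 (adjusted p = 7.55e-05). The list median was -0.98, against -0.03 for all genes, and all 28 were called lower under hybridization-control scaling. Ifit3, an RNA-binding antiviral protein, read 506, 473 and 404 with dexamethasone and 3787, 3729 and 3958 without (-2.97 ± 0.079, adjusted p = 1.73e-08). Its relative Ifit1 read 467, 466 and 425 against 3359, 3219 and 3324 (-2.78 ± 0.060, adjusted p = 4.06e-09). In both genes the treated arrays were below the fresh means of 691 and 479.

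Rsad2, the antiviral enzyme viperin, read 163, 179 and 118 against 1623, 1616 and 1709.9, at least 8.25-fold lower, and fresh membranes had 1134 ± 83.8. The interferon feedback protease gene Usp18 read 34.6, 34.2 and 33.2 against 519, 481 and 484, at least 2.47-fold lower, and Rtp4 was at least 5.43-fold lower. Gbp3, a guanylate-binding protein, fell from 1509.6, 1378 and 1552 to 268, 269 and 262 (-2.34 ± 0.073), Gbp6 fell from 1203, 1328 and 1070.1 to 300.5, 279 and 246, and Irf7, the transcription factor that amplifies interferon production, fell from 1042, 910.5 and 633 to 194, 213 and 172 (-1.97 ± 0.16). The adjusted p of these genes was at most 1.11e-05. The 5 members that did not pass were Irf1 (-0.07), Irf9 (-0.004), Ddx58 (-0.05), Ifi35 (-0.15) and Ifi202b (0.01). Genes of MHC class I and antigen presentation gave 8 falls and no rise of 14 (14 falls under hybridization-control scaling). The falls were 57.1% of the list, against 29.5% of all genes. Examples were the immunoproteasome subunit Psmb8 (-0.89 ± 0.087) and H2-D1 (-0.40 ± 0.049), adjusted p at most 1.10e-04.

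Chemokines moved both ways. Of 17 tested genes of chemokines, cytokines and adhesion molecules, 9 fell (52.9%) and 4 rose (23.5%), and 7 of the falls were at least 2-fold. Under hybridization-control scaling 13 fell and 2 rose. Genes of the NF-kB pathway gave 2 falls and 9 rises of 17 (11.8% and 52.9%, against 29.5% and 22.4% of all genes), and 11 falls and 0 rises under that scaling. Ccl7, a monocyte attractant, read 197, 221 and 204 with dexamethasone and 1093, 944 and 1021 without (-2.13 ± 0.086), Ccl5 read 199, 166 and 262 against 890.3, 1002 and 1016 (-2.07 ± 0.14), and Ccl2 fell from 2496, 2009 and 2335 to 976, 832 and 971 (-1.27 ± 0.090). The eosinophil attractant Ccl11 was outside the list and read 371, 362 and 376 against 2694, 2856 and 2483 (-2.75 ± 0.067). Fresh membranes were under 60 in mean signal for Ccl7, Ccl5 and Ccl2 (17.6, 4.13 and 44.5) and at 843 for Ccl11. The neutrophil attractants went in opposite directions: Cxcl1 rose from 1608, 1669 and 1424 to 5498, 5649.7 and 5525 (1.81 ± 0.062), and Cxcl2 fell from 596, 602 and 483 to 117, 121 and 136, at least 2.8-fold lower. The interferon-γ chemokine Cxcl10 (-1.12 ± 0.12) and the adhesion molecule gene Vcam1 (-1.21 ± 0.080) fell. The prostaglandin enzymes Ptgs2, cyclooxygenase 2 (at least 1.33-fold lower), and Pla2g4a, the cytosolic phospholipase that frees arachidonic acid (at least 1.88-fold lower), fell as well. The adjusted p was at most 1.09e-04 for every gene here. Complement and coagulation gave 5 falls and 3 rises of 12 (41.7% and 25.0%, near the 29.5% and 22.4% of all genes; 11 falls and 0 rises under hybridization-control scaling), with C1s1 (-1.27 ± 0.068) and C1ra (-0.90 ± 0.076), the proteases of the first component, among the falls (adjusted p at most 1.29e-05).

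Transcripts of granulocytes were nearly absent after dexamethasone. S100a8, a calprotectin subunit abundant in neutrophils, read 62.6, 44.3 and 83.7 with dexamethasone, 1653, 1646 and 1476 without and 7161, 6690.4 and 5884 in fresh membranes. It was at least 7.96-fold lower with dexamethasone (adjusted p = 8.74e-08). Its partner S100a9 read 24.5, 22.1 and 3.7, 796, 774 and 882 and 5478, 5820.2 and 5826 in the same order, at least 4.09-fold lower. The neutrophil granule genes Ngp, Ltf and Camp were at least 3.6, 1.58 and 1.5-fold lower (adjusted p at most 4.51e-06). All 5 genes had every dexamethasone array under 200 and passed the filter only through the untreated arrays, which fixed their direction. They were the 5 tested of 7 granulocyte markers, all lower, and the other 2 were under 200 on all 6 arrays. Their summed signal was 157 to 274.5 in dexamethasone arrays, 3781 to 3940.0 in untreated arrays and 20810 to 21620 in fresh ones. Macrophage markers did not follow: 5 rose and 3 fell of 10 (50.0% and 30.0%, against 22.4% and 29.5% of all genes). Their summed signal was 9229 to 9453 against 8244 to 8785. C1qb was the largest rise (0.93 ± 0.077) and Adgre1, known as F4/80, the largest fall (-0.88 ± 0.086). With hybridization-control scaling 1 macrophage marker rose and 6 fell, and all 5 granulocyte markers still fell. The part of granulocytes in the falls of S100a8, S100a9 and the chemokines was not tested.

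Growth factor and transcription factor genes were among the rises. Of 24 TGF-beta and BMP pathway genes, 11 rose (45.8%) and 6 fell (25.0%), where 22.4% and 29.5% of all genes did. Under hybridization-control scaling 5 rose and 14 fell. Beside Id1, its relatives Id2 (0.86 ± 0.064) and Id3 (0.60 ± 0.050) rose, Id3 without a call under that scaling (0.12), together with the ligands Bmp4 (1.29 ± 0.14) and Tgfb2 (1.07 ± 0.082) (adjusted p at most 5.73e-05). Pou3f4, a transcription factor of the otic mesenchyme whose loss causes deafness, rose from 601, 636 and 598 to 1718, 1609.6 and 1693 (1.41 ± 0.060, adjusted p = 2.61e-07). The other tested probe set of Pou3f4 did not pass, and of the other 2 of Tgfb2 only 1 was called higher. By symbol stem, the Klf zinc finger factors had the largest share of rises among families with 8 or more tested genes: 9 of 12 rose and 2 fell, with a median of 0.61, and 5 rose and 3 fell under hybridization-control scaling. Klf2 (1.11 ± 0.10, at least 1.5-fold higher), Klf7 (1.06 ± 0.079) and Klf15 led them (adjusted p at most 2.43e-05). Immediate early genes, which answer signals within minutes, gave 16 rises and 2 falls of 24 (66.7% and 8.33%), 6 and 9 under hybridization-control scaling, and 10 and 7 with the second control set. Examples were Maff (0.87 ± 0.067), Srf (0.87 ± 0.062) and Jun (0.72 ± 0.050), adjusted p at most 7.33e-06, though the other tested probe set of Jun did not pass.

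Stress genes were higher in some pathways. Amino acid stress and tRNA synthetase genes gave 20 rises and 1 fall of 31 (64.5% and 3.23%), against 4 and 17 under hybridization-control scaling. Trib3, a pseudokinase induced by the transcription factor Atf4, read 1219, 1154 and 1364 with dexamethasone and 416, 426 and 313 without (1.62 ± 0.11). Chac1, which degrades glutathione, rose by 1.05 ± 0.053, from 1033, 983 and 984 to 2139, 2059.6 and 2114, and the folate enzyme Mthfd2 (0.81 ± 0.048) and the stress factor Ddit3, known as CHOP (0.81 ± 0.061), rose (adjusted p at most 6.85e-06). Genes of endoplasmic reticulum folding gave 10 falls and 2 rises of 26 (38.5% and 7.69%, against 29.5% and 22.4% of all genes; 25 falls under that scaling), for example the disulfide isomerase gene Pdia6 (-0.59 ± 0.050, adjusted p = 1.31e-05). Antioxidant and glutathione genes gave 15 rises and 4 falls of 31 (3 and 23 under hybridization-control scaling), led by Gstm1 (1.15 ± 0.067), catalase Cat (1.00 ± 0.059) and the glutathione synthesis enzyme Gclc (0.92 ± 0.052), adjusted p at most 1.71e-06. The heat shock gene Hspa1a read 12199.9, 11575 and 11356 against 6031, 5519 and 5043 (1.08 ± 0.067, adjusted p = 2.20e-06), in a list with 11 rises and 2 falls of 25 (1 and 16 under that scaling).

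Cholesterol synthesis, the tricarboxylic acid cycle, oxidative phosphorylation and the proteasome had more falls than rises. Other biosynthetic lists did not. Fatty acid synthesis and storage gave 9 rises and 6 falls of 27 (33.3% and 22.2%), near the 22.4% and 29.5% of all genes. Ribosome biogenesis gave 11 and 4 of 30 (36.7% and 13.3%), and cytosolic ribosomal proteins 9 and 0 of 31 (29.0% and 0.0%). Under hybridization-control scaling none of the 3 lists had a rise, and 22, 26 and 28 members fell. None of 21 cholesterol synthesis genes rose and 14 fell (66.7%), with a median of -0.38, and all 21 were called lower under hybridization-control scaling. Idi1, which makes the isoprenoid building block, fell from 2357, 2658 and 2678 to 1343, 1446 and 1340.1 (-0.88 ± 0.065), followed by Ebp (-0.54 ± 0.053), Fdft1 (-0.49 ± 0.051) and Msmo1 (-0.44 ± 0.051), enzymes of later steps (adjusted p at most 8.64e-05). Of 22 tricarboxylic acid cycle genes 13 fell and 3 rose, for example Suclg1 (-0.64 ± 0.057) and Dld (-0.61 ± 0.068). Oxidative phosphorylation gave 16 falls and 2 rises of 34, with Sdhd of complex II at -0.78 ± 0.059, and the proteasome 17 falls and 5 rises of 32, with the core subunit Psma4 at -0.52 ± 0.055 and the cap subunit Psmd13 at -0.48 ± 0.063 (adjusted p at most 1.83e-04 for these genes). The medians of these 3 lists were -0.20, -0.12 and -0.19, and no member of the 3 lists was called higher under hybridization-control scaling. Under quantile normalization the oxidative phosphorylation count was 22 falls and no rise. The cytosolic ribosomal proteins then gave 4 rises and 4 falls, ribosome biogenesis 12 and 3, and fatty acid synthesis and storage 8 and 6.

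**Figure D4:**
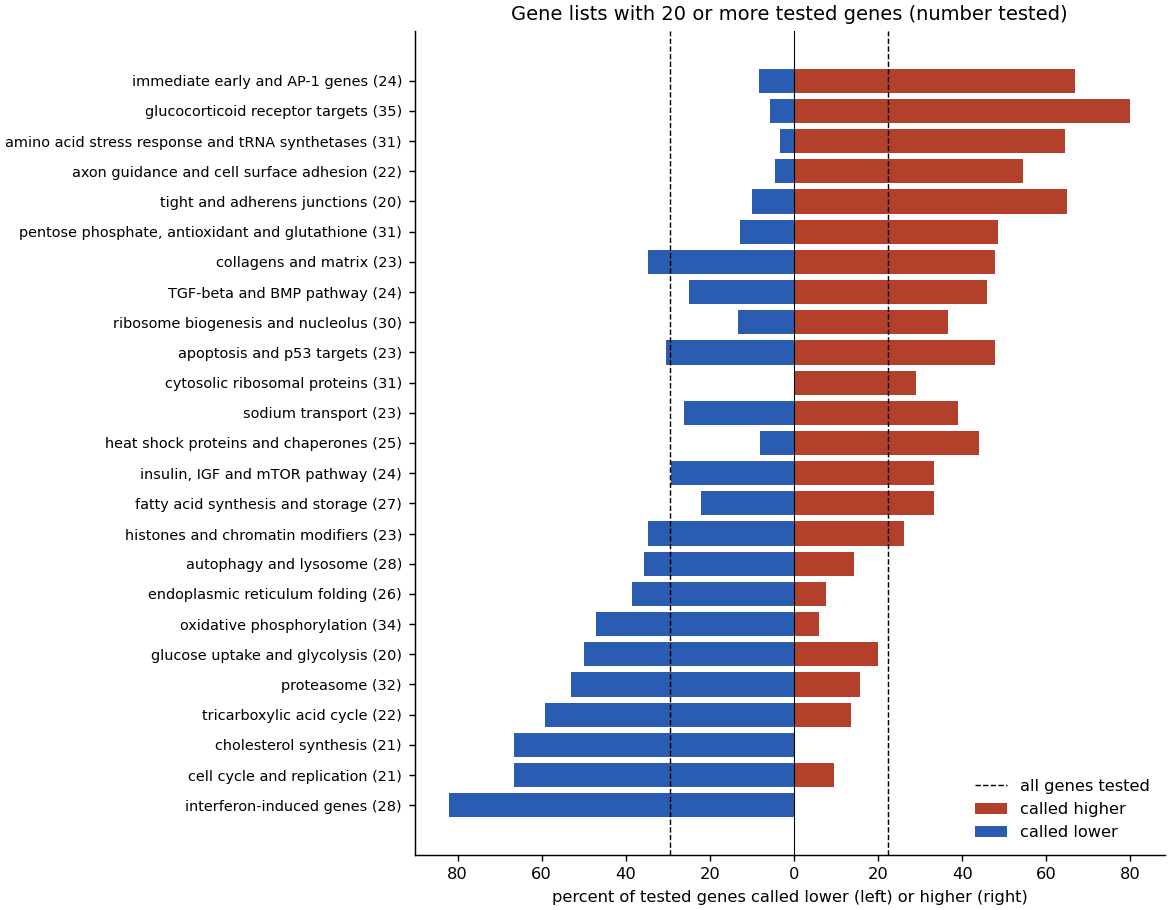
For the pathway lists with 20 or more tested genes, 1 list left out, bars give the percent of its tested genes called lower (left) and higher (right); dashed lines mark the percent over all 9318 genes, 29.5% and 22.4%. Interferon-induced genes have the longest bar to the left (82.1%) and receptor targets the longest to the right (80.0%, which falls to 13 of 35 genes under hybridization-control scaling).

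Replication genes were lower. Of 21 cell cycle and replication genes, 14 fell (66.7%) and 2 rose (9.52%), where 29.5% and 22.4% of all genes did. The median was -0.53, and 19 fell and 1 rose under hybridization-control scaling. The Mcm stem, which holds the 6 subunits of the replicative helicase and 2 other genes, gave 6 falls of 8 (all 8 under that scaling). This was the largest share of falls among families with 8 or more tested genes, and the 6 falls were those of the helicase subunits. Mcm2 read 861, 935 and 715 with dexamethasone and 1729, 1706 and 1509 without (-0.96 ± 0.097), Mcm3 read 565, 555 and 574 against 1088, 1134 and 1063 (-0.92 ± 0.063), and Mcm6 (-0.92 ± 0.12), Mcm5 (-0.88 ± 0.066) and Mcm7 (-0.61 ± 0.049) fell (adjusted p at most 2.20e-04). The fresh mean of Mcm3 was 363 and that of Mcm5 was 514, both below the dexamethasone means. The 2 rises were those of the cyclin kinase inhibitor genes Cdkn1a, known as p21 (0.66 ± 0.052, adjusted p = 8.30e-06), and Cdkn1c, known as p57 (0.35 ± 0.097, adjusted p = 0.012), and Cdkn1c had the opposite sign under hybridization-control scaling (-0.12). The other tested probe set of Cdkn1a was called in the opposite direction, 1458, 1376 and 1444 against 2117, 1975 and 2328 (-0.57 ± 0.067, adjusted p = 8.91e-05), so the gene's direction is not settled. Genes of intraflagellar transport, the machinery that builds cilia, gave 10 falls and no rise of 14 (14 falls under that scaling), such as Ift22 (-0.62 ± 0.076), Ift88 (-0.61 ± 0.095) and Ift74 (-0.60 ± 0.084), adjusted p at most 5.01e-04. The Slc39 zinc importers gave 7 falls and 1 rise of 11 (10 and 0 under that scaling), with Slc39a2 at -0.83 ± 0.064 (adjusted p = 7.84e-06).

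Matrix and retinoid genes split by member. Col4a1 and Col4a2, the chains of basement membrane collagen, rose: Col4a1 read 4135, 4079 and 4131 with dexamethasone and 1505, 1526 and 1569.5 without (1.41 ± 0.046), and Col4a2 rose by 1.16 ± 0.056. The fibrillar collagen gene Col3a1 fell from 2208, 1705 and 1830.3 to 349.9, 371 and 413 (-2.24 ± 0.10), and Frem1, a basement membrane protein, fell too (-1.73 ± 0.098, adjusted p at most 1.34e-06). In all, 11 of 23 matrix genes rose and 8 fell (47.8% and 34.8%, against 22.4% and 29.5% of all genes). Under hybridization-control scaling 4 rose and 14 fell. While the retinal-oxidizing enzyme gene Aldh1a1 rose, its relative Aldh1a2 fell from 4199.8, 3914 and 3817 to 1580.2, 1574 and 1493 (-1.34 ± 0.055). Dhrs3, which turns retinal back into retinol and is induced by retinoic acid, fell from 6658, 6464 and 6124 to 1550.2, 1485 and 1479 (-2.07 ± 0.051), and the retinoic acid receptor gene Rarb, another retinoic acid target, fell too (-0.93 ± 0.081, adjusted p at most 1.61e-05).

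The largest fall among genes measured in both groups was that of Cndp1, a carnosine dipeptidase: 209.7, 278 and 197 against 2032, 1944 and 2186 (-3.01 ± 0.11, adjusted p = 1.32e-07). Fresh membranes were higher still, at 4544, 4490 and 4535. Ch25h, an enzyme that makes the antiviral oxysterol 25-hydroxycholesterol, was at least 3.37-fold lower, 59.3, 111 and 87.7 against 631, 625 and 763. The remaining large falls were those of Kbtbd11 (-1.86 ± 0.13), the immune cell receptor gene Cd244a (-1.84 ± 0.11), the synaptic adhesion gene Tenm4 (-1.79 ± 0.10) and Sprr1a (-1.74 ± 0.074), a cornified envelope precursor, with adjusted p at most 5.56e-06. In signal units, losses were largest for Dhrs3, Tgfbi (-1.24 ± 0.066), Gas2 (-0.69 ± 0.054), Gas1 (-1.16 ± 0.15), Ifitm3 (-0.59 ± 0.052), the linker histone gene H1f2 (-1.13 ± 0.075), Cnmd (-0.73 ± 0.051) and Plekhb1 (-0.37 ± 0.067), with untreated means from 6416 (Dhrs3) to 15451 (Plekhb1). Gains in signal units were largest for the small heat shock gene Hspb1, at 22266, 19749 and 23228 against 14485, 12668 and 14639 (0.64 ± 0.076), the non-muscle myosin gene Myh9, at 13142, 11864 and 13226 against 5888, 5853 and 6006 (1.10 ± 0.054), Ifitm1 (0.71 ± 0.081), Saa3, Hspa1a, Cryab (0.36 ± 0.062), the nuclear RNA Malat1 (0.40 ± 0.093) and Zbtb16. Under hybridization-control scaling Hspb1 lost its call (0.15) and Cryab and the brightest Malat1 probe set had the opposite sign (-0.13 and -0.09). The other 5 tested Malat1 probe sets differed by 0.14 to 0.96, and 3 of the 5 stayed positive under that scaling (0.13, 0.35 and 0.47). Of the other 4 probe sets of Myh9, 3 rose and 1 fell (-0.15 ± 0.046, adjusted p = 0.019). The 4 brightest genes that did not pass were Lgals1 (28630 against 29858), Actg1, Akr1a1 and Cndp2, with changes from -0.06 (Lgals1) to 0.20 (Actg1).

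Markers of cell types were compared to see which tissue the arrays held. All 11 epithelial markers were tested, and 8 rose (72.7%) and 1 fell (9.09%), against 22.4% and 29.5% of all genes. The rises were from 0.21 to 0.65 on the log2 scale. The summed signal of the 11 markers was 97890 to 103200 in dexamethasone arrays and 84660 to 88560 in untreated ones. Under hybridization-control scaling none rose and 9 fell. Of 8 mesothelial markers 6 lay under 200 on all 6 arrays, and the summed signal was 1484 to 1574 against 1585 to 1685. Fibrocyte markers of the ligament and limbus summed to 7067 to 8815 against 6108 to 6822, well below the 74540 to 76960 of fresh membranes. The brightest of them alone had a mean of 5327 against 3401. Of 7 tested, 3 rose (42.9%) and 2 fell (28.6%), and under hybridization-control scaling 2 rose and 4 fell. Markers of melanocytes, T and B cells, red cells and bone were under 200 on all 6 arrays, and so were 7 of 8 neuron and 5 of 6 hair cell markers. The part of these cell types in the changes of other genes was not tested.

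Probe sets with no gene symbol in the annotation stood apart from the rest. Of 1591 tested, 913 were called higher (57.4%) and 212 lower (13.3%), and 229 (14.4%) were at least 2-fold higher against 13 at least 2-fold lower. Among 15075 probe sets with 1 symbol the shares were 24.3% higher and 27.8% lower, with 2.18% at least 2-fold higher. The median change was 0.37 for probe sets with no symbol and -0.02 for those with 1, and under hybridization-control scaling the medians were -0.09 and -0.49, with 28.2% and 5.30% called higher. The contrast was wide for dim probe sets: at a mean signal under 400, 65.5% of 827 probe sets with no symbol were higher, against 25.8% of 3915 with 1 symbol, from 1600 to 3200 the shares were 24.1% and 23.4%, from 3200 to 6400 they were 35.2% and 23.4%, and from 6400 they were 40.0% and 30.6%. A pair of the unnamed probe sets with large rises read 2294, 2465 and 2153 against 314, 416 and 469, and 1893, 1838 and 1629 against 329, 434 and 330.4. Genes annotated as long noncoding RNA pointed the same way by count, with 41 of 107 higher (38.3%) and 17 lower (15.9%), against 22.2% and 29.7% of 9169 protein-coding genes; under hybridization-control scaling 11 were higher and 60 lower. Of 12 small nucleolar RNA host genes (Snhg stem), 7 rose and none fell, with none higher and 5 lower under that scaling. The higher Gapdh 3′ to 5′ ratio of the dexamethasone arrays, given above, moved with these counts, and its part in them was not tested.

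**Figure D5:**
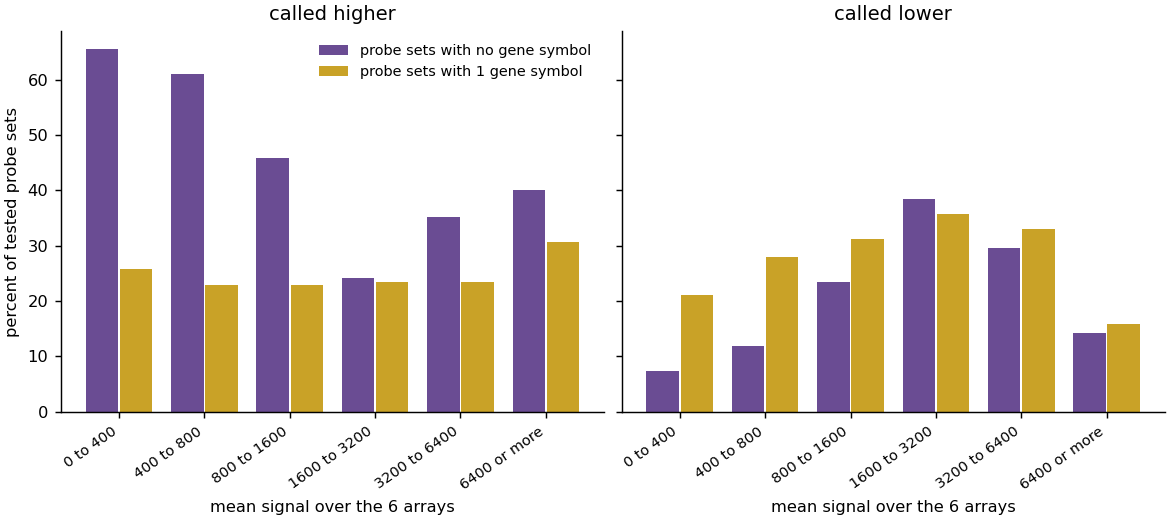
Percent of tested probe sets called higher (left) and lower (right) with dexamethasone, by mean signal over the 6 arrays, for probe sets with no gene symbol and with 1. Dim probe sets with no symbol are higher in 65.5% of cases (under 400) and 61.0% (400 to 800), and under 400 those with 1 symbol in 25.8%; under hybridization-control scaling these 3 shares are 32.4%, 37.8% and 8.91%.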

How the data were processed

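The values were the authors' deposited intensity signals, linear and scaled by the authors to a target signal of 500 over all probe sets with a scale factor of 1 for normalization, per the labels' description; the summarisation software is not given in the sources used here. Per the labels' protocols, a small-sample method with repeated transcription in vitro amplified the RNA, which favours 3′ ends. All 6 arrays of the 2 groups were compared in 1 fit of log2(signal + 32), with lmFit and trended eBayes of limma 3.58.1 (R 4.3.3) and Benjamini-Hochberg adjustment over 17131 probe sets; precision is limited by the number of arrays. Of 45101 probe sets, 34945 had 1 gene symbol in GEO's platform annotation, 932 several and 9160 none, and 64 were controls. The tested probe set with 1 symbol and the highest mean log2 signal stood for its gene. Where all 3 arrays of a group lay under 200, the fold is a bound, the other group's mean over 200. Such a gene passed the filter only through the other group, so its direction was set by the filter. The members and the gene lists were chosen with earlier results of these data known. Of the 1677 list entries 1541 were on the array.

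Named genes were drawn from the 16 largest rises and the 16 largest falls with both means at 200 or more and arrays apart. The rule also took the 8 largest gains and losses in signal and the 8 highest bounds each way. Up to 4 called members of each list were taken by adjusted p. It further took the receptors and enzymes of glucocorticoid and the 4 brightest genes not called. Up to 3 called members came from the 8 families with the largest share of rises and of falls. Many list and family members that the rule names were left out of the text, after their values were seen. Atp1b1, Atp1b3, Car14, Ccl2, Cdkn1c, Cebpb, Cxcl10, Ddit3, Ddx58, Fxyd5, Ifi202b, Ifi35, Irf1, Irf7, Irf9, Klf9, Ltf, Map3k6, Scnn1b, Sgk1, Tsc22d3 and Vcam1 were named outside that rule, after their values were seen. A gene that the rule names and a list are not reported here. Probe sets ending in _s_at or _x_at, which can match several transcripts, stood for Actg1, C1qb, C1s1, Car14, Cxcl1, Fdft1, Gstm1, H2-D1, Ifi202b, Ifi35, Malat1, Mcm2, Mcm3, Mcm5, Mcm6, Mcm7, S100a8, Srf, Tgfbi, Trib3 and Tsc22d3. Promoter windows were RefSeq's, found for 7645 of 9318 genes. Alternatives were quantile, median and hybridization-control scaling (a second control set was added after the data were seen), other pseudocounts and floors, eBayes without trend, all 9 arrays, a replicate block, leaving out each array, and the mean over a gene's probe sets. The statistics were tested on simulated data.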

Additional observations from a re-analysis of the deposited data

How the results depend on the processing

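Scaling to the hybridization controls changed the most. It called 13900 probe sets (1255 higher, 12645 lower) and 7887 genes (342 higher, 7545 lower), with 40 genes at least 2-fold higher and 720 at least 2-fold lower. Of the 9188 probe sets called in the reported fit, 5770 were called in the same direction and 2329 had the opposite sign. Of 157 genes named, 140 kept direction and side of the threshold, and 7 had the opposite sign: Cryab (-0.13), Malat1 (-0.087), Cdkn1c (-0.12), Scnn1b (-0.37), Ifi202b (-0.48), Actg1 (-0.29) and Akr1a1 (-0.35). The cause was not tested. Scaling to the second control set, chosen after seeing the data, called 1757 probe sets higher and 10751 lower and 554 genes higher and 6507 lower, with 56 at least 2-fold higher and 413 lower; Scnn1b (-0.24), Ifi202b (-0.34), Actg1 (-0.15) and Akr1a1 (-0.21) had the opposite sign. With a pseudocount of 100, 95 genes were at least 2-fold higher, since a larger pseudocount shrinks the change of dim genes. With no filter on signal, which tests more probe sets (45037), 234 genes were at least 2-fold higher and 209 lower. Quantile normalization called 8423 of the 9188 in the same direction and 4 had the opposite sign. Leaving out each array in turn called 8046 to 8446 probe sets and 4227 to 4452 genes, and no probe set called in the reported fit changed sign. A replicate block by array letter called 9540 probe sets and 5057 genes; same-letter arrays correlated at 0.0025, 0.21 and -0.0069 in their deviations, so the letters were not taken as pairs. With 1 pooled sample per group, the spread between animals is not measured, and dim probe sets give bounds.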
